A study of Mus musculus with 9 samples.

Results

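The renal glucose, urate and lactate transporters described here are 9 genes of 2 solute carrier families: Slc5a1, Slc5a2, Slc5a8, Slc5a12, Slc2a1, Slc2a2, Slc2a4, Slc2a5 and Slc2a9. They were chosen by name, with earlier results of these data known. All 9 were found among the 26139 gene symbols measured by bulk RNA sequencing of mouse kidney. The GQYS mice had the genotype Itgam-IRES-hCD89, in which human CD89, a receptor for IgA with no counterpart in mice, is tied to the Itgam locus, and were given Gui-qi-yi-shen granules by gavage every day over 5 months. The IgAN mice, a model of the kidney disease IgA nephropathy, had the same genotype and were given saline by gavage. The WT mice were wild-type C57/BL6 animals on saline. The titles call both saline groups untreated. The Itgam locus is active mainly in myeloid cells, a cell type other than tubule cells. Bulk tissue does not show which cells carried the transcripts of these transporters. Each group had 3 libraries. The labels used here give neither age nor whether the libraries came from separate animals, so the p-values measure the spread between libraries, which may be partly technical.

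Glucose is filtered freely in the glomerulus and recovered by the proximal tubule. SGLT2 (Slc5a2) takes up most of it across the luminal membrane of the early segments, and SGLT1 (Slc5a1), which has a higher affinity, takes up the remainder in the last segment. Facilitative GLUT carriers of the Slc2a family then release it on the blood side, GLUT2 (Slc2a2) mainly in the early segments and GLUT1 (Slc2a1) further along the nephron. The Slc5a family also holds the sodium-coupled carriers of lactate and other monocarboxylates, SMCT1 (Slc5a8) and SMCT2 (Slc5a12), and the Slc2a family a fructose carrier, GLUT5 (Slc2a5), the insulin-responsive GLUT4 (Slc2a4), best known from muscle and fat, and a urate carrier, GLUT9 (Slc2a9).

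The libraries held between 30564947 and 38161564 reads assigned to genes, worked out from the spacing of low FPKM values (fragments scaled to gene length and library total). The smallest member count was 397 reads, for Slc2a9, and the largest 21957, for Slc5a2. WT replicate 1 and IgAN replicate 1 stood apart from the other 7 libraries. The share of reads from mitochondrially encoded genes was 18.6% for WT replicate 1, with a range of 7.81% to 13.3% for the remaining libraries. Havcr1, the tubular injury marker KIM-1, was at 43.8 FPKM in IgAN replicate 1 and at no more than 1.79 FPKM in any other library. Genes of 5000 bases or more deviated by a median of -0.23 on the log2(FPKM + 1) scale in WT replicate 1, and genes under 1500 bases by 0.18. Defining markers of the proximal tubule were abundant throughout, with a summed level of 5 shared markers between 1993 and 2693 FPKM. Itgam itself was low, at 0.0848 ± 0.0574 FPKM in GQYS, 0.289 ± 0.132 in IgAN and 0.495 ± 0.197 in WT (SD, n = 3 each).

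Per length and per library, Slc5a2 was the most abundant of the 9 transporters in every library and Slc2a9 the least. In GQYS kidneys Slc5a2 averaged 247 ± 19.9 FPKM, followed by Slc2a2 at 78.1 ± 12.2, Slc5a12 at 72.0 ± 19.9, Slc5a8 at 42.9 ± 6.82, Slc5a1 at 19.0 ± 4.79, Slc2a5 at 18.4 ± 0.476, Slc2a1 at 15.0 ± 1.16, Slc2a4 at 6.41 ± 0.316 and Slc2a9 at 3.41 ± 0.211 FPKM (SD, n = 3 each). The ranges of Slc2a2 and Slc5a12 overlapped there, as did those of Slc5a1 and Slc2a5, and the other neighbours in this order did not. In IgAN and WT kidneys neighbours in the order overlapped within the set of Slc2a2, Slc5a12 and Slc5a8 and within that of Slc5a1, Slc2a1 and Slc2a5. The other neighbours in these orders did not overlap. Slc2a4 and Slc2a9 kept the last places in all 3 groups with ranges apart from each other.

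**Figure D1:**
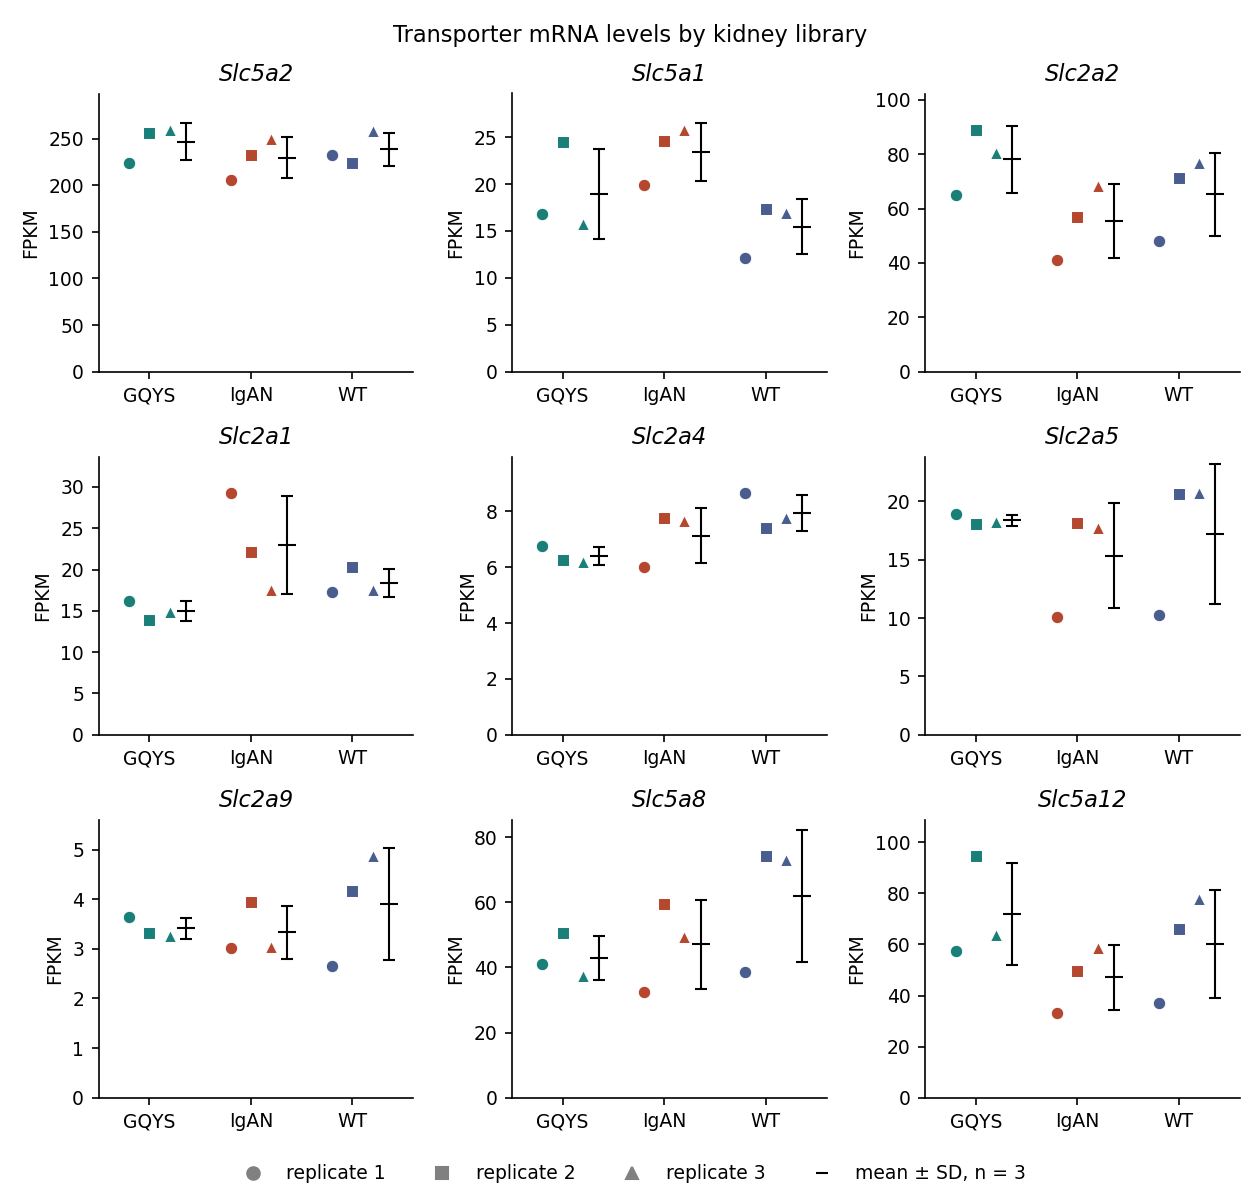
FPKM of each transporter in GQYS, IgAN and WT kidneys, with 1 symbol per library, its shape giving the replicate number, and the mean ± SD beside it; each panel has its own axis from 0. Slc5a2 lies between 206 and 259.6 FPKM in all libraries, and Slc2a5 is near 10 FPKM in replicate 1 of IgAN and WT and between 17.7 and 20.7 FPKM in the other 7.

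None of the 9 transporters passed limma at an adjusted p of 0.05 in any of the 3 comparisons. In IgAN against WT 0 of 9 passed, where 0.353% of 11617 tested genes did, and 1 of 9, Slc5a1, had an unadjusted p below 0.05, as did 10.3% of tested genes. In GQYS against IgAN 0 of 9 passed, where 0.198% of tested genes did, and 2 of 9, Slc2a1 and Slc2a2, had an unadjusted p below 0.05, as did 10.4%. In GQYS against WT 0 of 9 passed, as did 0% of tested genes, and 1 of 9, Slc2a4, had an unadjusted p below 0.05, as did 4.43%. The limma voom test on the recovered reads gave the same counts, 0 adjusted and 1, 2 and 1 unadjusted. The median log2 change of the 9 was -0.14 in IgAN against WT, 0.03 in GQYS against IgAN and 0.05 in GQYS against WT, against 0.02, 0.01 and 0.03 for all tested genes. In IgAN against WT the FPKM ranges lay apart for 1 transporter in the higher direction, Slc5a1, and for 0 in the lower, where 9.18% and 4.8% of tested genes did so. In GQYS against IgAN they lay apart for 0 in the higher direction and 1 in the lower, Slc2a1, where 9.84% and 9.29% did so. In GQYS against WT they lay apart for 0 in the higher direction and 2 in the lower, Slc2a1 and Slc2a4, where 7.14% and 2.61% did so. Each pair of comparisons shares the libraries of 1 group, so their changes are not independent of each other.

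**Figure D2:**
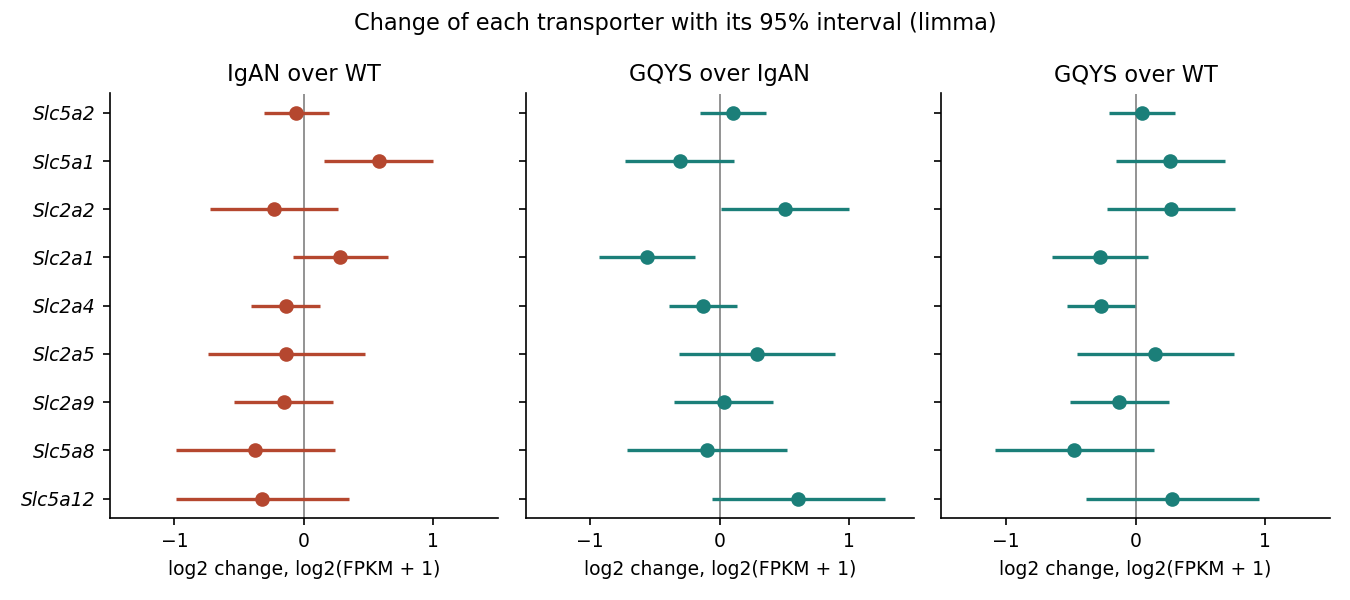
Log2 change of each transporter on the log2(FPKM + 1) scale with its 95% interval from limma, for IgAN over WT, GQYS over IgAN and GQYS over WT; positive values mean higher in the group named first. Only Slc5a1 in IgAN over WT, Slc2a2 and Slc2a1 in GQYS over IgAN and Slc2a4 in GQYS over WT have intervals that leave out 0, and none passed after adjustment over all tested genes.

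Slc5a2, the SGLT2 gene and the target of the gliflozin drugs, was the steadiest of the 9. It was at 224, 257 and 259.6 FPKM in GQYS, at 206, 232 and 249.7 in IgAN and at 233, 224 and 258 in WT. The groups overlapped fully, and the highest library was 1.26-fold the lowest. The coefficient of variation over 9 libraries was 7.90%, below that of all but 9.23% of tested genes, whose median was 15.6%. The log2 change was -0.06 in IgAN against WT (95% interval -0.31 to 0.20), 0.11 in GQYS against IgAN (-0.15 to 0.36) and 0.05 in GQYS against WT (-0.21 to 0.30). In bulk tissue, fewer cells of a type and less RNA per cell cannot be told apart, for this gene and for the others.

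Slc5a1, the SGLT1 gene, stood higher in IgAN. It was at 16.8, 24.5 and 15.7 FPKM in GQYS, at 19.9, 24.6 and 25.8 in IgAN and at 12.2, 17.3 and 17.0 in WT. Every IgAN library lay above every WT library, while GQYS replicate 2 lay among the IgAN libraries and the other GQYS libraries among those of WT. The log2 change in IgAN against WT was 0.58 ± 0.19 (SE; 95% interval 0.15 to 1.0) with an unadjusted limma p of 0.0125 and an adjusted p of 0.288. It was 0.53 with an adjusted p of 0.254 without WT and IgAN replicate 1, and its adjusted p ranged between 0.0526 and 0.957 over all settings tried. In GQYS against IgAN the log2 change was -0.31 (95% interval -0.73 to 0.11, limma adjusted p = 0.657). It was -0.50 without GQYS replicate 2 (limma adjusted p = 0.467) and -0.19 without GQYS replicate 3. The summed level of 6 markers of the last proximal segment overlapped between the groups, at 3683 to 4458 FPKM in GQYS, 4158 to 4372 in IgAN and 3819 to 4648 in WT. Slc27a2 and Acy3 made up most of that sum. Within the list Slc6a18, an amino acid carrier of that segment, was higher in every IgAN library, at 154 to 214 FPKM, than in any WT library, at 116 to 140.1, and was at 133 to 160.2 FPKM in GQYS. The other markers of the list overlapped between IgAN and WT. Both ends of the IgAN range were below those of WT for Slc7a12, Slc7a13 and Acy3, and above them for Slc22a7. Slc27a2 in IgAN lay within its WT range. The part of this segment in the Slc5a1 values was not tested.

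The ratio of Slc5a2 to Slc5a1 within a library does not depend on the library total. It was 13.3, 10.5 and 16.5 in GQYS, 10.3, 9.44 and 9.68 in IgAN and 19.2, 12.9 and 15.2 in WT. All 3 IgAN libraries lay below all GQYS and WT libraries, the nearest being GQYS replicate 2. The log2 ratio differed by -0.67 in IgAN against WT and by 0.43 in GQYS against IgAN, where it was 0.27 without GQYS replicate 3. The 2-sided exact permutation p was 0.1 for both, the smallest that 3 against 3 libraries allow, and 0.18 after Benjamini-Hochberg adjustment over 9 ratio tests. In GQYS against WT the difference was -0.24 with an exact permutation p of 0.5.

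Slc2a2, the GLUT2 gene, was lowest in replicate 1 of IgAN and of WT. It was at 64.9, 89.0 and 80.4 FPKM in GQYS, at 41.0, 57.0 and 68.3 in IgAN and at 47.9, 71.2 and 76.6 in WT. The groups overlapped, since IgAN replicate 3 lay above GQYS replicate 1. The log2 change in GQYS against IgAN was 0.51 (95% interval 0.01 to 1.0) with an unadjusted limma p of 0.0459 and an adjusted p of 0.464. It was 0.31 without WT and IgAN replicate 1 (adjusted p = 0.411). In IgAN against WT it was -0.23 (95% interval -0.73 to 0.26), with -0.04 without IgAN replicate 1, -0.40 without IgAN replicate 3, -0.44 without WT replicate 1 and -0.10 without WT replicate 3.

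Slc2a1, the GLUT1 gene, was lowest in GQYS. It was at 16.2, 13.8 and 14.9 FPKM in GQYS, at 29.3, 22.2 and 17.5 in IgAN and at 17.3, 20.3 and 17.5 in WT. All 3 GQYS libraries lay below all other 6, and IgAN replicate 1 was far above the rest. The log2 change in GQYS against IgAN was -0.56 ± 0.17 (SE; 95% interval -0.93 to -0.19) with an unadjusted limma p of 0.00716 and an adjusted p of 0.254. It was -0.38 without IgAN replicate 1 (adjusted p = 0.549). In GQYS against WT it was -0.28 (95% interval -0.65 to 0.09). Beside this, the summed level of 3 of 3 detected markers of collecting duct principal cells (Aqp2, Aqp3 and Scnn1g) was 127 to 154 FPKM in GQYS, 159 to 246 in IgAN and 139 to 159.6 in WT. Aqp2 alone separated GQYS, at 74.4 to 95.1 FPKM, from IgAN, at 104 to 174, while Aqp3 and Scnn1g overlapped between these groups. Summed injury markers (Havcr1, Lcn2 and Krt20) were at 1.74 to 4.43, 6.95 to 82.1 and 1.11 to 4.50 FPKM in GQYS, IgAN and WT. Red cell markers, with the globins among them, were at 496 to 1061 FPKM in GQYS, 373 to 702 in IgAN and 388 to 861 in WT. Leukocyte markers (Ptprc, Cd68 and Lyz2) summed to 25.7 to 38.9 FPKM in GQYS, 42.6 to 69.5 in IgAN and 23.1 to 67.3 in WT. Smooth muscle markers were at 20.4 to 26.8, 32.9 to 37.7 and 20.6 to 29.9 FPKM in the same order. Endothelial markers went the other way, at 72.8 to 77.8, 55.9 to 64.9 and 61.3 to 69.2 FPKM. Lyz2, smooth muscle Acta2 and endothelial Emcn made up most of their sums. Lyz2, Cd68 and Acta2 were lower, and Emcn higher, in every GQYS library than in any IgAN library. Ptprc, the smooth muscle markers Myh11 and Cnn1 and the endothelial markers Pecam1 and Cdh5 overlapped between these groups. The part of these cell types in the Slc2a1 values was not tested.

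The ratio of Slc2a2 to Slc2a1 was 4.01, 6.43 and 5.39 in GQYS, 1.40, 2.57 and 3.90 in IgAN and 2.77, 3.50 and 4.39 in WT. Every GQYS library lay above every IgAN library, by a small margin between GQYS replicate 1 and IgAN replicate 3, whereas GQYS and WT overlapped. The log2 ratio differed by 1.10 in GQYS against IgAN, with an exact permutation p of 0.1 and 0.18 after adjustment, by 0.57 in GQYS against WT (exact permutation p = 0.2) and by -0.53 in IgAN against WT (exact permutation p = 0.4). Without IgAN replicate 1 the first difference was 0.71.

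Slc5a1 and Slc2a1 were the members with a positive log2 change in IgAN against WT and a negative one in GQYS against IgAN. None of these changes passed limma after adjustment. The promoters of both are shown, with that of Slc2a2 beside them. Slc2a2 had the opposite signs, as did Slc5a2, Slc2a5, Slc2a9 and Slc5a12. RefSeq promoters on GRCm38.p6 were on hand for 6 of the 9 genes; Slc5a2, Slc2a4 and Slc5a12 had none. Matches to ACGTG on either strand, a form of the core of the hypoxia response element, are in capitals. Each line gives the 250 bases before the gene start, 5′ to 3′, all on the plus strand. The first is chr5:33103969-33104218, the second chr4:119108495-119108744 and the last chr3:28697653-28697902.
Slc5a1: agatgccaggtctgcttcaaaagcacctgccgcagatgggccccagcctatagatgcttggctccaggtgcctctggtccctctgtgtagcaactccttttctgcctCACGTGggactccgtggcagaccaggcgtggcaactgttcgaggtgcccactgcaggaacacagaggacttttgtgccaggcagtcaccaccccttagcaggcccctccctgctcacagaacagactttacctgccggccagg
Slc2a1: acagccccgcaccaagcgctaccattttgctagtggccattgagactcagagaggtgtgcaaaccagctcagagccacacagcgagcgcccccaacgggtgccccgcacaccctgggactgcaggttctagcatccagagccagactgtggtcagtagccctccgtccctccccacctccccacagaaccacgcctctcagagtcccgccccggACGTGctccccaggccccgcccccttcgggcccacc
Slc2a2: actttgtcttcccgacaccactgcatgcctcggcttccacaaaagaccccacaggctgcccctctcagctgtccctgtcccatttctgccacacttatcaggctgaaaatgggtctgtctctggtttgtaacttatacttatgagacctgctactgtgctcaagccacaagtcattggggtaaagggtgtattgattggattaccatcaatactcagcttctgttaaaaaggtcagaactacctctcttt
ACGTG was found in 2 of the 6 promoters, those of Slc5a1 and Slc2a1, and in 16.6% of 32851 mouse promoters of the same length. In Slc5a1 both strands match at positions -143 and -142 from the gene start, which together form the E-box CACGTG, counted as an overlap, held by 6.02% of promoters. In Slc2a1 the match begins at -36. The other form of the core, GCGTG, was not counted. It stands unmarked, on either strand, in the windows of Slc5a1, Slc2a1 and Slc5a8. The HNF4 core CAAAGTCCA was in 0 of these 6 windows and in 0.384% of all promoters. A match of letters is a description only.

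Slc2a4, the GLUT4 gene, was lower in every GQYS library than in any WT library. It was at 6.77, 6.26 and 6.19 FPKM in GQYS, at 5.99, 7.76 and 7.64 in IgAN and at 8.67, 7.39 and 7.76 in WT. IgAN replicate 1 was the lowest of all 9 libraries, and the other IgAN libraries lay within the WT range. The log2 change in GQYS against WT was -0.27 ± 0.12 (SE; 95% interval -0.53 to -0.0049) with an unadjusted limma p of 0.0466 and an adjusted p of 0.999. Markers of striated muscle, where GLUT4 is abundant, summed to at most 0.138 FPKM in any library. The fat markers Adipoq, Plin1 and Cfd reached 2.89, 1.13 and 11.4 FPKM in WT replicate 3 and no more than 0.0796, 0.0257 and 0.158 FPKM in the other libraries, while Slc2a4 in WT replicate 3 lay between the other WT libraries. The remaining fat marker listed, Fabp4, did not follow them, at 42.5 to 57.3 FPKM in GQYS, 48.5 to 57.2 in IgAN and 47.5 to 81.4 in WT, with its highest value in WT replicate 1. The part of fat in the Slc2a4 values was not tested.

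Slc2a5, the fructose carrier gene, was at 18.9, 18.0 and 18.2 FPKM in GQYS, at 10.1, 18.1 and 17.7 in IgAN and at 10.3, 20.6 and 20.7 in WT. Replicate 1 of IgAN and of WT stood far below the other 7 libraries, which differed by no more than 1.17-fold. No group difference passed: the log2 change was -0.14 in IgAN against WT (95% interval -0.74 to 0.47), 0.29 in GQYS against IgAN (-0.32 to 0.89) and 0.15 in GQYS against WT (-0.45 to 0.76). The sign in GQYS against WT turned to -0.16 without WT replicate 1, and that in IgAN against WT to 0.12 without IgAN replicate 1.

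Slc2a9, the urate carrier gene, was at 3.65, 3.33 and 3.26 FPKM in GQYS, at 3.02, 3.95 and 3.04 in IgAN and at 2.66, 4.17 and 4.88 in WT. WT held both the lowest and the highest library. The log2 change was -0.16 in IgAN against WT (95% interval -0.54 to 0.23), 0.03 in GQYS against IgAN (-0.35 to 0.41) and -0.13 in GQYS against WT (-0.51 to 0.26). Slc22a12, the gene of the luminal urate exchanger URAT1, was at 832 ± 11.3 FPKM in GQYS, 808 ± 56.4 in IgAN and 804 ± 121 in WT (SD, n = 3 each).

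Slc5a8 and Slc5a12, the genes of the lactate carriers SMCT1 and SMCT2, were the most variable of the 9, with coefficients of variation of 30.3% and 32.1% over the libraries. Slc5a8 was at 41.0, 50.5 and 37.3 FPKM in GQYS, at 32.5, 59.4 and 49.2 in IgAN and at 38.7, 74.3 and 73.1 in WT. WT replicates 2 and 3 were the highest of all, while WT replicate 1 fell within the GQYS range. The log2 change in GQYS against WT was -0.47 ± 0.28 (SE; 95% interval -1.09 to 0.14) with a limma adjusted p of 0.999. Without WT replicate 1 it was -0.78 with an adjusted p of 0.525, and over all settings the adjusted p ranged between 0.0436 and 1.0. In IgAN against WT the log2 change was -0.37 (95% interval -0.99 to 0.24), with a range of -0.68 without WT replicate 1 to -0.13 without IgAN replicate 1. In GQYS against IgAN it was -0.10 (-0.71 to 0.52).

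Slc5a12 was at 57.6, 94.7 and 63.6 FPKM in GQYS, at 33.2, 49.6 and 58.5 in IgAN and at 37.0, 65.9 and 77.9 in WT. The groups overlapped, with replicate 1 of IgAN and of WT the lowest. The log2 change in GQYS against IgAN was 0.61 (95% interval -0.06 to 1.27, limma adjusted p = 0.552). It was 0.38 without IgAN replicate 1 and 0.39 without GQYS replicate 2. In GQYS against WT it was 0.28 (-0.38 to 0.95), and -0.03 without WT replicate 1.

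The ratio of Slc5a12 to Slc5a8 separated GQYS from both other groups. It was 1.40, 1.88 and 1.71 in GQYS, 1.02, 0.834 and 1.19 in IgAN and 0.956, 0.887 and 1.07 in WT. All 3 GQYS libraries lay above all other 6, and IgAN and WT overlapped. The log2 ratio differed by 0.72 in GQYS against IgAN and by 0.77 in GQYS against WT. The exact permutation p was 0.1 for both, the smallest possible, and 0.18 after adjustment. In IgAN against WT the difference was 0.06, with an exact permutation p of 0.8. Leaving out any 1 library kept the first difference between 0.58 and 0.84 and the second between 0.68 and 0.89. The gene lengths implied by the FPKM values, 5305 and 5335 bases, put both genes in the same length class. The part of gene length in this ratio was not tested.

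**Figure D3:**
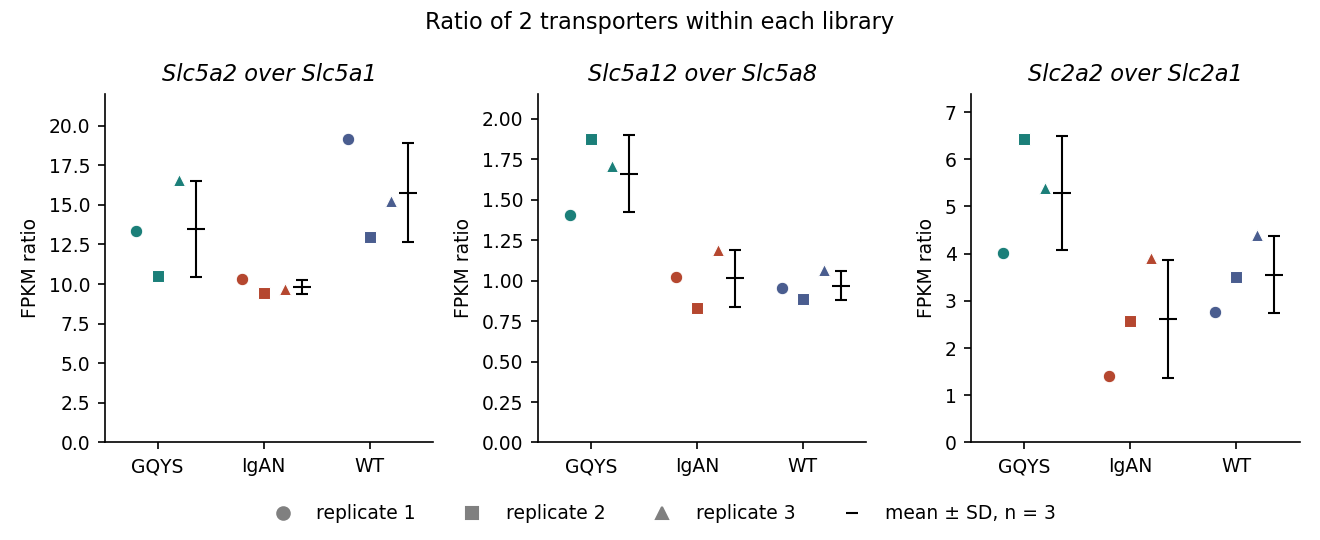
Ratio of the FPKM values of 2 transporters within each library in GQYS, IgAN and WT kidneys, with 1 symbol per library and the mean ± SD beside it. Slc5a12 over Slc5a8 is 1.40 or more in the GQYS libraries and 1.19 or less in the other 6, and Slc5a2 over Slc5a1 is lowest in the 3 IgAN libraries.

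IgAN replicate 1 had the lowest value of 6 of the 9 transporters and WT replicate 1 that of 2, Slc5a1 and Slc2a9. On the log2(FPKM + 1) scale Slc5a12 deviated from its mean over 9 libraries by -0.76 in IgAN replicate 1 and -0.61 in WT replicate 1. In the same order, Slc2a5 deviated by -0.65 and -0.63, Slc2a2 by -0.64 and -0.42 and Slc5a8 by -0.57 and -0.33. Slc5a2 deviated by only -0.20 and -0.03. Other proximal tubule genes differed in the same way among themselves. Slc4a4, the basolateral bicarbonate carrier, deviated by -0.70 and -0.91, Lrp2, the endocytic receptor megalin, by -0.44 and -0.79, and Slc34a1, the phosphate carrier, by -0.08 and -0.15. The long-gene deviation given above was -0.08 in IgAN replicate 1 and -0.23 in WT replicate 1, and the part of gene length, injury or the mitochondrial share in these values was not tested. Without these 2 libraries no transporter passed in any comparison either.

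**Figure D4:**
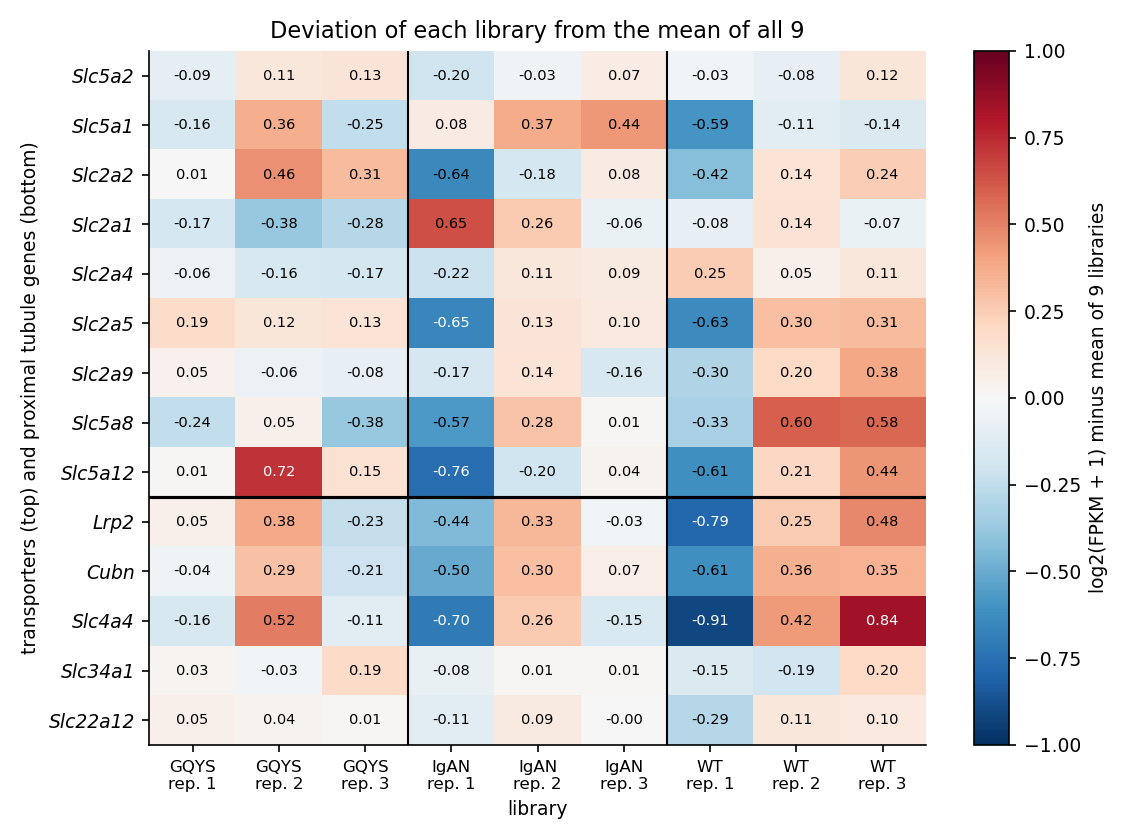
Deviation of each library from the mean of all 9 on the log2(FPKM + 1) scale for the transporters (above the line) and 5 proximal tubule genes (below it), with GQYS, IgAN and WT libraries from left to right. Slc2a2, Slc2a5, Slc5a8 and Slc5a12 are low in replicate 1 of IgAN and of WT, while Slc5a2 stays within 0.21 of its mean in every library.

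Of 42 other genes of sugar, urate and monocarboxylate transport, 41 were in the table and 34 passed the filter. In limma 0 of the 34 passed in each comparison, with 7 in IgAN against WT, 8 in GQYS against IgAN and 4 in GQYS against WT at an unadjusted p below 0.05, and voom gave the same counts. Over all tested genes 10.3%, 10.4% and 4.43% had an unadjusted p below 0.05 in these comparisons. The nearest to the threshold was Slc5a3, a myo-inositol carrier that tubule cells use against osmotic stress. It was at 13.2, 21.5 and 15.9 FPKM in GQYS, at 26.7, 33.3 and 28.6 in IgAN and at 15.3, 15.4 and 15.6 in WT. All IgAN libraries lay above all others. Its log2 change was 0.89 in IgAN against WT (limma adjusted p = 0.0600) and -0.80 in GQYS against IgAN (adjusted p = 0.106).

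Of 10 other urate transport genes, the gene of the nicotinate and urate exchanger OAT10, Slc22a13, had the smallest p. It averaged 14.1 ± 2.75 FPKM in GQYS, 21.0 ± 1.40 in IgAN and 15.1 ± 1.99 in WT (SD, n = 3 each), with limma adjusted p of 0.281 in IgAN against WT and 0.191 in GQYS against IgAN. Of 7 tested monocarboxylate genes, Slc16a1, the carrier MCT1, averaged 19.2 ± 4.30 FPKM in GQYS, 13.2 ± 1.83 in IgAN and 19.1 ± 4.80 in WT (limma adjusted p = 0.432 in GQYS against IgAN). Its chaperone basigin, Bsg, averaged 285 ± 8.50, 304 ± 16.0 and 259.6 ± 17.1 FPKM in GQYS, IgAN and WT. Among 10 partners and regulators, Sgk1, a kinase that responds to corticosteroids, averaged 14.7 ± 2.14 FPKM in GQYS, 28.9 ± 9.93 in IgAN and 17.5 ± 3.10 in WT (limma adjusted p = 0.206 in GQYS against IgAN). Txnip, an arrestin-like gene that restrains glucose uptake, averaged 162 ± 44.5 FPKM in GQYS, 148 ± 22.1 in IgAN and 100.3 ± 21.9 in WT (limma adjusted p = 0.912 in GQYS against WT).

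Likeness of pattern was measured as the root mean square difference between profiles scaled to mean 0 and SD 1 over the 9 libraries, which share their depth and composition. Within the 9 transporters the closest pair was Slc2a2 and Slc5a12, at 0.251, and the most distant was Slc5a2 and Slc2a1, at 1.89. The nearest tested genes to Slc5a12 were Thsd7a at 0.138 and Sgk3 at 0.200, and the same genes were nearest to Slc2a2, Sgk3 at 0.162 and Thsd7a at 0.221. Slc2a5 was nearest to Abcg2, a urate exporter, at 0.154 and to Osbp2 at 0.161. Slc5a8 was nearest to Secisbp2l at 0.222 and Pank3 at 0.235, and Slc2a9 to Pzp at 0.232 and Mgam at 0.241. Slc5a1 was nearest to Sh3pxd2a and Elovl7, both at 0.267, and Slc2a1 to Tuba1c at 0.307 and Napa at 0.369. Slc5a2 was nearest to Lats2 at 0.347 and Tspan6 at 0.353, and Slc2a4 to Kansl1l at 0.434 and Depdc1b at 0.461.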

How the data were processed

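Per the labels' protocols, TRIzol was used to extract kidney RNA and a VAHTS kit to build the libraries. The values analysed are FPKM as deposited by the authors, 26139 symbols by 9 libraries. GRCm39 is the build in the submitters' processing notes, which list HISAT2, HTSeq, fastp, R 3.2.0 and DESeq2 with no order. The sources used here do not give the annotation or strand setting, so overlapping antisense genes cannot be told apart.

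FPKM values stepped in whole reads, which gave read counts within 0.03 reads for all 26139 genes, though genes with few reads match easily. Groups were compared with limma 3.58.1 (R 4.3.3, trend option, 1 model for the 9 libraries) using log2(FPKM + 1), a scale that understates changes of low genes. The filter kept 11617 genes, those reaching an FPKM of 1 in 3 or more libraries, with Benjamini-Hochberg adjustment over all of them, and the model was tested on simulated data. Ratios of 2 genes used 2-sided exact permutation over 20 splits. Intervals are 95%. Mitochondrially encoded genes are the 13 listed without a prefix in the table.

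The 9 transporters, the gene and marker lists and the tests were chosen with earlier results of these data known. Other genes named are those of the lists with the smallest p (up to 2 per list and comparison), the 2 most similar profiles per transporter, without predicted and clone-named genes, Slc22a12, named for its role, and markers. A gene that this rule also covers is not reported here. Alternatives covered the pseudocount, filter, scaling, library weights, samples, replicate block, voom on recovered reads and each library left out. Leaving out both WT and IgAN replicate 1, scaling to proximal tubule markers and centring of length classes were added after seeing the data. Figures were drawn with matplotlib 3.10.9 in Python 3.11.15.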

Additional observations from a re-analysis of the deposited data

How the results depend on the processing

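No transporter passed in any comparison under the alternatives tried, except Slc5a8 in GQYS against WT with library weights (log2 change -0.83, adjusted p = 0.0436, of 53 genes called there); the cause was not tested. Over the alternatives, 572 log2 changes of the 9 transporters kept direction and side of the threshold and 21 turned sign. Without both WT and IgAN replicate 1 the turned values were 0.0217 for Slc2a4 and 0.0015 for Slc5a2 in IgAN against WT, -0.16 for Slc2a5 and -0.0271 for Slc5a12 in GQYS against WT, and -0.0215 for Slc2a9 in GQYS against IgAN. With library weights they were -0.12 for Slc2a5 and -0.0356 for Slc5a12 in GQYS against WT and 0.0444 for Slc5a2 in IgAN against WT, and with quantile normalization -0.0102 for Slc2a9 in GQYS against IgAN. Leaving out 1 library at a time, the log2 change ranged between -0.16 and 0.31 for Slc2a5, -0.32 and 0.0198 for Slc2a9 and -0.0271 and 0.50 for Slc5a12 in GQYS against WT, between -0.45 and 0.12 for Slc2a5, -0.199 and -0.0361 for Slc2a4 and -0.12 and 0.0173 for Slc5a2 in IgAN against WT, and between -0.0215 and 0.13 for Slc2a9 and -0.34 and 0.0883 for Slc5a8 in GQYS against IgAN. The log2 ratio of Slc5a12 to Slc5a8 in IgAN against WT ranged between -0.066 and 0.19, and all other ratio differences kept their sign. Log2 changes not given above also moved by over 1.5 times without 1 library, and ranged between 0.10 and 0.46 for Slc2a1, -0.35 and -0.01 for Slc2a9 and -0.63 and -0.09 for Slc5a12 in IgAN against WT, between 0.03 and 0.42 for Slc2a5, 0.03 and 0.17 for Slc5a2 and -0.23 and -0.07 for Slc2a4 in GQYS against IgAN, and between 0.07 and 0.40 for Slc2a2, 0.08 and 0.38 for Slc5a1 and 0.0048 and 0.12 for Slc5a2 in GQYS against WT. The log2 ratio of Slc2a2 to Slc2a1 ranged between -0.88 and -0.14 in IgAN against WT, and that of Slc5a2 to Slc5a1 between -0.40 and -0.07 in GQYS against WT.

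The count of genes called, 41 in IgAN against WT, 23 in GQYS against IgAN and 0 in GQYS against WT, ranged between 14 and 65, 6 and 54 and 0 and 1 without 1 library at a time. In IgAN against WT it was 655 with library weights, 21 without a filter, 11 with only the 6 libraries compared, 68 with length classes centred and 4 relative to proximal tubule markers. In GQYS against IgAN it was 404, 13, 43, 35 and 2 under these settings, 15 with a pseudocount of 0.1 and 63 without both WT and IgAN replicate 1. In GQYS against WT it was 53 with library weights. The labels number the replicates alike in each group, but the deviations of same-numbered libraries correlated at 0.581, 0.467 and 0.078 for replicates 1, 2 and 3 of IgAN and WT, at 0.223, 0.35 and -0.1 for GQYS and IgAN and at 0.321, 0.395 and -0.364 for GQYS and WT. Replicate 3 did not reach 0.1, so the numbers were not taken as pairs. With the replicate block 68 genes were called in IgAN against WT, and no transporter. With 4 of 6 libraries of IgAN and WT, 3 of 6 of GQYS and IgAN and 2 of 6 of GQYS and WT correlating best with their own number, the data give no more than a hint of pairing. The number of libraries, 3 a group, limits the precision that the intervals give.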
